A study of Neurospora crassa with 12 samples.

Results

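The genes described here are those of *Neurospora crassa* whose transcripts were more abundant in sulfur-starved cys-3- cells than in sulfur-starved wild-type cells, without a large fall in starved wild type. They were selected on the FPKM of 9 of the 12 libraries, all but those of cys-3- cells in 24 µM sulfate. A member had to average at least 10 FPKM (the fragments assigned to a gene, scaled to its length and to the mapped total of the library) in starved cys-3- cells and at least 1.5 times the starved wild-type mean. Each of its 3 starved cys-3- libraries had to lie above each of the 3 starved wild-type libraries, and its mean in starved wild type had to exceed 2/3 of the wild-type mean in 24 µM sulfate. Of 9758 genes, 4642 met the first condition, 276 also the second, 271 also the third and 214 all of them. The fourth condition alone dropped 57 genes. Of 10 genes named in advance to be left out, 6 were among the 214, and 208 members remained. All 208 were matched to the RefSeq annotation of assembly NC12 by locus tag, but a symbol was found for only 32 of them and an annotation other than hypothetical protein for 16.

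The 12 libraries came from 4 groups of 3 independent mycelial cultures, and poly(A) RNA was sequenced from each: sulfur-starved cys-3- cells, sulfur-starved wild-type cells, cys-3- cells in 24 µM sulfate and wild-type cells in 24 µM sulfate. Conidia were first grown for 24 h with methionine at 500 mg/liter, and the washed mycelia then spent 4 h in the medium of their group. The cys-3- strain is 1 isolate, recovered as a homokaryon from a heterokaryon of the deletion collection, in which a cassette for hygromycin resistance took the place of the 5′ part of *cys-3*, while the remainder is still transcribed. Because only this isolate stands for the mutation, an effect of losing CYS-3 and any other difference between the strains cannot be told apart.

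CYS-3 is a bZIP transcription factor that activates genes for sulfur uptake and assimilation when preferred sulfur sources run out, among them sulfate permeases and arylsulfatase. Arginine and other amino acids are made by pathways that, in this fungus, come under cross-pathway control, a joint induction of many amino acid synthesis genes when one amino acid is short.

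Across the 4 groups the members formed a gradient in which starved cys-3- cells had the most transcript and starved wild-type cells the least. The members together made up 3.66% to 3.81% of the summed FPKM in the 3 starved cys-3- libraries and 2.06% to 2.40% in the 3 starved wild-type libraries. In 24 µM sulfate they made up 2.73% to 3.40% in cys-3- libraries and 2.57% to 2.99% in wild-type libraries. The starved cys-3- mean was the highest of the 4 for 186 members, and the cys-3- mean in 24 µM sulfate for the other 22. The starved wild-type mean was the lowest for 187 members, and for 21 it was the wild-type mean in 24 µM sulfate. In 147 members the order was starved cys-3-, cys-3- in 24 µM sulfate, wild type in 24 µM sulfate, starved wild type. The selection fixed part of this pattern. Under its conditions no wild-type mean could be the highest, and the starved cys-3- mean could not be the lowest. Choosing genes with little transcript in starved wild type also favors the lowest place for that group.

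**Figure D1:**
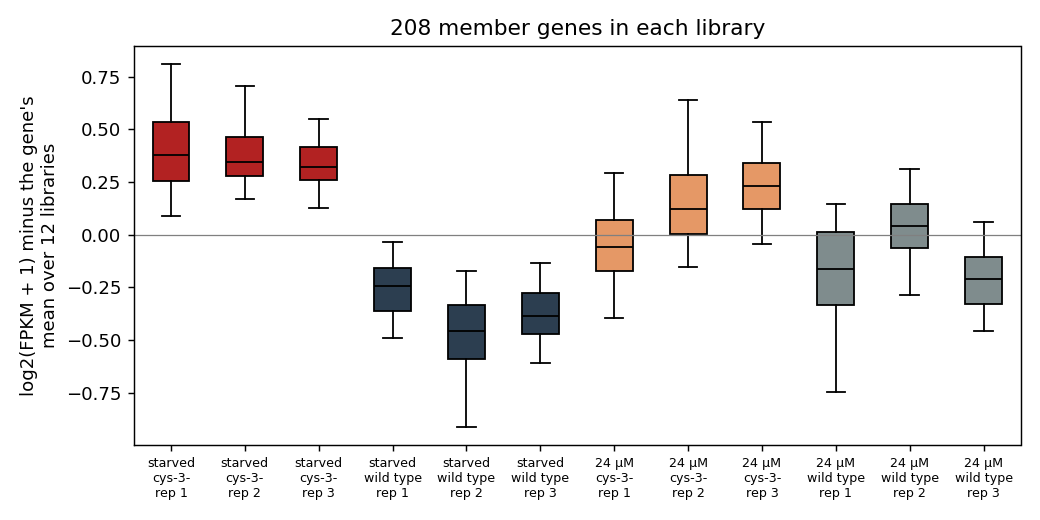
Log2(FPKM + 1) of the 208 members in each of the 12 libraries, minus each gene's own mean over the 12. Boxes span the quartiles, the line is the median and whiskers run to the 5th and 95th percentiles. The 3 starved cys-3- medians lie at 0.32 to 0.38, the 3 starved wild-type medians at -0.46 to -0.25, and the libraries from 24 µM sulfate in between.

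The plot of members by library shows that the separation of the starved strains, which the selection used, had 2 sides. In starved over 24 µM sulfate, the median ratio of group means was 1.18 in cys-3- (quartiles 1.10 and 1.30) and 0.83 in wild type (quartiles 0.75 and 0.91). Over all 5035 tested genes, those whose mean reached 10 FPKM in any group, the medians were 0.99 in cys-3- and 0.97 in wild type. The description of the set as not lowered by starvation thus holds only in the sense of the 2/3 limit, since 187 of the 208 wild-type means were lower in starvation. In cys-3- cells, 186 of the 208 means were higher in starvation and 14 were higher by 1.5-fold or more. Each starved cys-3- library lay above each cys-3- library from 24 µM sulfate in 78 members. The share of all tested genes with such a separation was not counted, so the 78 cannot be called many or few. These comparisons share libraries with the selection and are given without a test.

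The ratio of starved cys-3- over starved wild type had a median of 1.65 over the members, against 0.99 over all tested genes. It lay under 2 for 185 members. The members just inside the 1.5-fold limit were NCU06537, NCU04266 and NCU09004, with ratios 0.000603 to 0.000867 above it. The genes just outside it that met the other conditions were NCU02895, NCU01555 and NCU08685, with ratios 0.00101 to 0.00347 below it. Levels in starved cys-3- cells were spread widely, with a median of 42.1 FPKM, 50 members under 20 FPKM and 59 at 100 FPKM or more. No sharp border therefore sets the weakest members apart from their neighbors.

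The member with the largest ratio was NCU03534, a gene annotated as a hypothetical protein on chromosome II (333578 to 334814). It begins 2374 bases beyond the end of *cys-3* (NCU03536; 326313 to 331203), the gene that carries the cassette in the mutant. NCU03534 had 14.2, 11.4 and 14.4 FPKM in starved cys-3- cells, against 0.942, 2.10 and 1.78 FPKM in starved wild type. In 24 µM sulfate it had 10.7, 12.6 and 11.7 FPKM in cys-3- cells, against 0.0562, 0 and 0.0591 FPKM in wild type. Transcript was thus present in all 6 cys-3- libraries in either medium and close to none in wild type with sulfate, where the 3 libraries together held about 2 reads. Taking 3 reads in a library as the floor, the gene was at least 59.2-fold higher in cys-3- cells than in wild type in 24 µM sulfate (limma on log2(FPKM + 1), adjusted p = 8.37e-07, 3 libraries each). Starved wild-type cells in turn had at least 8.13-fold more than wild type with sulfate.

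NCU03535 (chromosome II, 329641 to 331354) overlaps *cys-3*, and unstranded reads of the pair cannot be told apart. It had 0.857 to 2.00 FPKM in starved cys-3- cells against 0.295 to 0.594 FPKM in starved wild type, a ratio of 3.42 at levels under the minimum of 10 FPKM, so it was not tested. With sulfate the strains overlapped, at 1.82 ± 0.329 FPKM in the mutant and 1.53 ± 1.02 FPKM in wild type (SD, n = 3). NCU03533, the next gene on the far side of NCU03534, was also under that minimum, with 8.03 to 9.16 FPKM in starved cys-3- cells against 4.47 to 5.54 FPKM in starved wild type. NCU03533 with sulfate had 9.39 to 9.82 FPKM in the mutant and 4.59 to 6.89 FPKM in wild type, so the strains did not overlap in either medium. Among the 10 genes on each side of *cys-3*, 10 were tested and NCU03534 was the only member. Of the other 9, NCU03530 alone was called in starvation (higher, ratio 1.43), with 20.7% of all tested genes called higher. None was called in 24 µM sulfate. The cys-3- libraries with sulfate nonetheless lay above those of wild type for NCU03530, NCU03537 and, barely, *un-24*, against 7.45% of tested genes. NCU03530 had 504 to 568 FPKM against 315 to 435 FPKM, and NCU03537 had 11.8 to 16.2 FPKM against 10.1 to 11.3 FPKM. For the rest of the 9 the strains overlapped with sulfate. The truncated *cys-3* itself had 71.1 to 73.7 FPKM in starved cys-3- cells against 132 to 162 FPKM in starved wild type. With sulfate the mutant had 74.9 to 79.7 FPKM of it, against 58.7 to 66.6 FPKM in wild type. Whether the cassette beside NCU03534 or the loss of CYS-3 goes with its transcript cannot be told apart in 1 isolate.

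**Figure D2:**
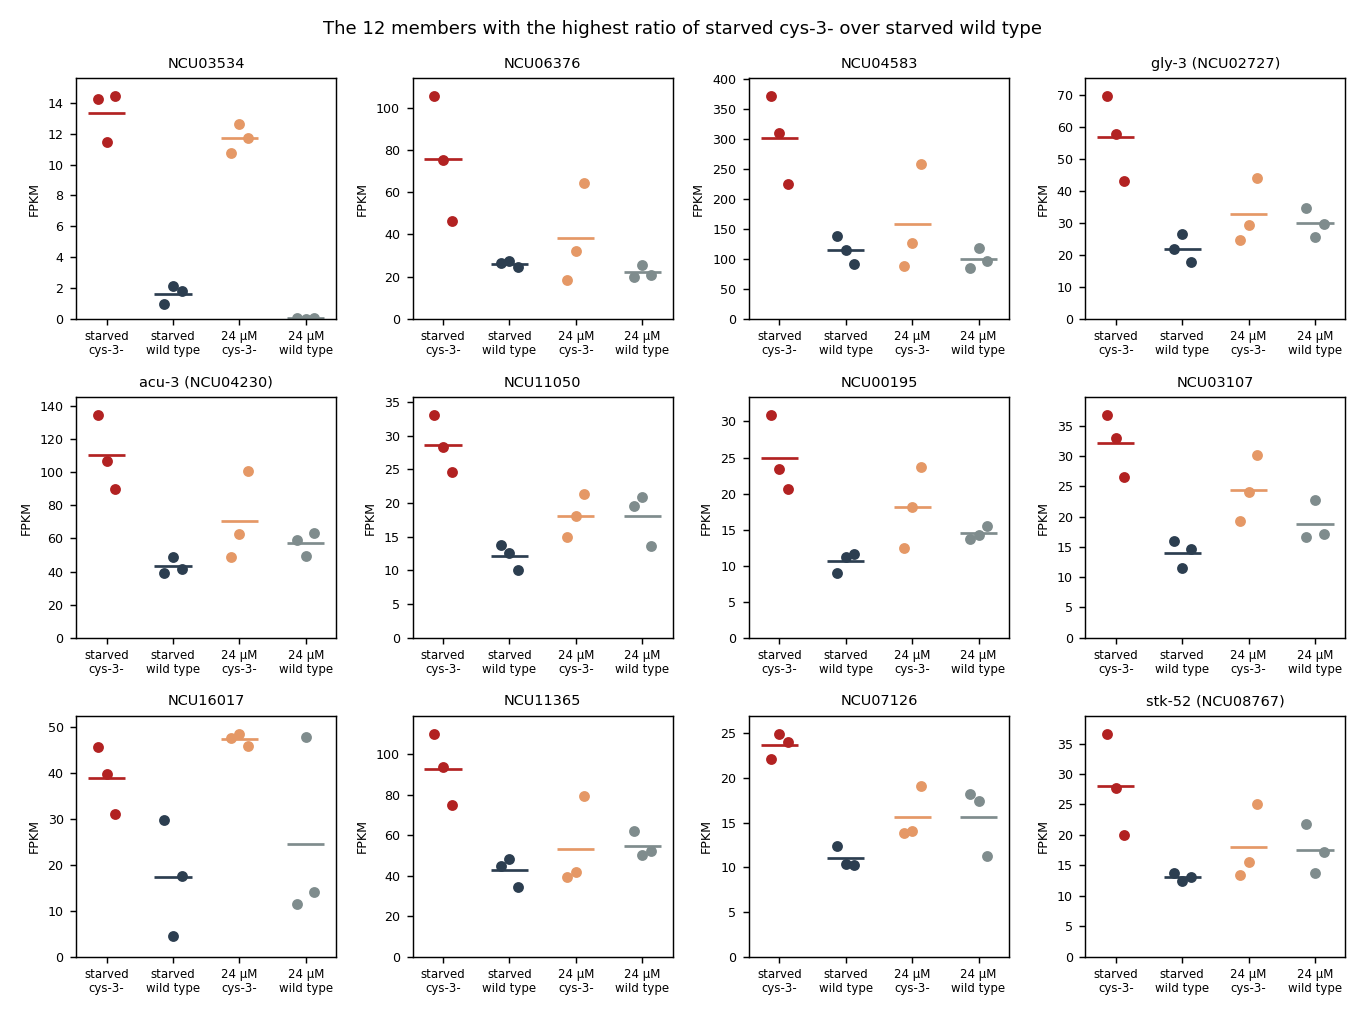
FPKM in every library of the 12 members with the highest ratio of starved cys-3- over starved wild type. Points are the 3 libraries of a group and lines their mean, with starved groups on the left of each panel. NCU03534 has transcript in both cys-3- groups, whereas in most of the other panels the cys-3- libraries in 24 µM sulfate spread from the level of wild type to that of the starved cys-3- libraries.

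Apart from NCU03534, the leading members had strain ratios in starvation of 2.09 to 2.91. NCU06376, a hypothetical protein (chromosome IV, 2738897 to 2741292), had 105, 75.2 and 46.3 FPKM in starved cys-3- cells against 26.4, 27.2 and 24.4 FPKM in starved wild type. NCU04583, annotated as an acetyltransferase (chromosome V, 1608278 to 1609923), had 371, 309 and 225 FPKM in starved cys-3- cells against 138, 115 and 90.8 FPKM in starved wild type. With sulfate NCU04583 had 88.2, 126 and 259 FPKM in cys-3- cells and 84.1, 119 and 97.0 FPKM in wild type. A single cys-3- culture with sulfate, replicate 3, thus reached the level of the starved cys-3- cultures while the others stayed near wild type.

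The same library stood apart in the metabolic genes that followed. *gly-3* (NCU02727; chromosome I, 3340306 to 3342164), which encodes the T protein of the glycine cleavage system that passes a one-carbon unit to folate, had 69.7, 57.9 and 43.3 FPKM in starved cys-3- cells against 21.9, 26.5 and 17.7 FPKM in starved wild type. In 24 µM sulfate it had 24.6, 29.5 and 44.0 FPKM in cys-3- cells and 34.8, 25.7 and 29.8 FPKM in wild type. The *gly-3* locus shares 1581 bases with NCU02726, which reached 33.3 FPKM, so the division of unstranded reads between them is uncertain. *acu-3* (NCU04230; chromosome V, 5289251 to 5292173), which encodes isocitrate lyase, the entry enzyme of the glyoxylate cycle, had 135, 107 and 89.9 FPKM in starved cys-3- cells against 39.3, 49.0 and 41.8 FPKM in starved wild type. Its values in 24 µM sulfate were 48.5, 62.5 and 101 FPKM in cys-3- cells and 58.8, 49.3 and 63.3 FPKM in wild type. Both genes therefore overlapped between the strains when sulfate was present. For *acu-3* and *gly-3* together with NCU06376 and NCU04583, the highest cys-3- library with sulfate lay above the lowest starved cys-3- library.

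Most genes of the same pathways were not members. Among the 6 tested genes of acetate use and the glyoxylate cycle, *acu-3* was the only member. Of the other 5, *acu-15* was higher in starved cys-3- cells (38.7 ± 1.39 FPKM against 30.8 ± 4.42 FPKM in starved wild type, SD, n = 3; limma adjusted p = 0.0302) and 4 were not called, among them *acu-9* (ratio 1.28) and *acu-5* (ratio 1.00). Over all 5035 tested genes, members included, 20.7% were called higher and 17.1% lower in starved cys-3- cells at an adjusted p under 0.05. The 1 of 5 leaves out the member *acu-3*, so these shares are not over like sets. In the list of glycine cleavage and folate genes, which held 3 tested genes, *gly-3* was the member, *for* was called higher (ratio 1.29) and *met-13*, methylenetetrahydrofolate reductase, was called lower (ratio 0.66).

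Transporters, an aminotransferase and a kinase followed among the leading 15. NCU00195 (chromosome III, 2952414 to 2955195) is annotated as a transporter of the major facilitator superfamily and had 30.9, 23.4 and 20.6 FPKM in starved cys-3- cells against 9.02, 11.2 and 11.6 FPKM in starved wild type. NCU03107 (chromosome I, 4584244 to 4586881), of the same superfamily, had 36.7, 32.9 and 26.6 FPKM in starved cys-3- cells against 15.9, 11.5 and 14.7 FPKM in starved wild type. The aminotransferase NCU11365 (chromosome IV, 191867 to 194669) had 110.0, 93.9 and 75.1 FPKM in starved cys-3- cells against 45.0, 48.3 and 34.6 FPKM in starved wild type. The separation was thus about as wide for these as for *acu-3*, although at lower levels in the transporters. With sulfate NCU11365 had 39.4, 41.8 and 79.2 FPKM in cys-3- cells, around the 62.0, 50.0 and 52.0 FPKM in wild type. *stk-52* (NCU08767; chromosome III, 5215762 to 5218271), a serine/threonine protein kinase, had 36.6, 27.6 and 19.9 FPKM in starved cys-3- cells against 13.7, 12.4 and 13.0 FPKM in starved wild type. The DUF455 domain protein NCU11050 and the hypothetical proteins NCU07126, NCU05277 and NCU04256 completed this group of nuclear genes, with ratios of 2.37, 2.15, 2.13 and 2.10. NCU07126 shares 2995 bases with NCU07127, which reached 16.9 FPKM, so unstranded reads there could belong to either gene.

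Genes of arginine synthesis were 4 of the members and included one of the most abundant. *arg-1* (NCU02639; chromosome I, 3021493 to 3024070), argininosuccinate synthetase, had 1031, 950.1 and 886 FPKM in starved cys-3- cells against 639, 617 and 547 FPKM in starved wild type. *arg-10* (NCU08162; chromosome VII, 3592420 to 3594494), argininosuccinate lyase, which acts in the next step, had 433, 426 and 378 FPKM in starved cys-3- cells against 234, 232 and 194 FPKM in starved wild type. *arg-2* (NCU07732; chromosome IV, 2061118 to 2063726), the small subunit of the arginine-specific carbamoyl phosphate synthetase, had 280.4, 229.5 and 240.1 FPKM in starved cys-3- cells against 169, 156 and 157 FPKM in starved wild type. The 3 genes thus span both the entry of carbamoyl phosphate and the last steps to arginine. *arg-5* (NCU05410; chromosome II, 1548853 to 1551277), acetylornithine aminotransferase, had 150.3, 143 and 137 FPKM in starved cys-3- cells against 87.0, 101 and 73.2 FPKM in starved wild type.

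With sulfate present, the arginine genes of the strains overlapped. *arg-1* had 677, 785 and 969 FPKM in cys-3- cells and 682, 694 and 756 FPKM in wild type, and *arg-10* had 283, 325 and 434 FPKM in cys-3- cells and 282 to 330 FPKM in wild type. *arg-2* had 228, 197 and 246 FPKM in cys-3- cells and 235, 205 and 266 FPKM in wild type, so its mean ratio was 0.95. The difference passed the test in 24 µM sulfate for none of the 4 (limma adjusted p of 0.424 to 0.919).

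Of the 4 tested arginine genes that are neither members nor left out by name, 3 were called higher in starved cys-3- cells and 1 lower. The background of 20.7% called higher and 17.1% lower includes the members, so the sets are not alike. *arg-3* (173 ± 29.4 FPKM in starved cys-3- cells against 57.3 ± 2.53 FPKM in starved wild type, SD, n = 3) and *arg-12* (244 ± 39.2 FPKM against 119 ± 17.2 FPKM, SD, n = 3) were left out by name. No p value is given for them. They were nonetheless in the fit, and their calls enter the total over all lists given below. *arg-3* encodes the large subunit of the carbamoyl phosphate synthetase and *arg-12* ornithine carbamoyltransferase. *arg-4*, *arg-6* and *arg-14*, which act earlier in ornithine synthesis, were higher by ratios of 1.29, 1.28 and 1.23. *arg-15* was lower (20.5 ± 0.223 FPKM against 33.2 ± 5.45 FPKM, SD, n = 3; limma adjusted p = 0.000465). *cpc-3* (NCU01187), the kinase of cross-pathway control that corresponds to Gcn2 of *Saccharomyces cerevisiae*, was itself a member, with 42.2, 42.7 and 42.8 FPKM in starved cys-3- cells against 27.0, 29.1 and 24.9 FPKM in starved wild type. The list of aminoacyl-tRNA synthetases held only genes beside CYS-3 binding peaks, so it does not stand for the family. Its 3 tested genes, none of them a member, were all called higher, by ratios of 1.19 to 1.26.

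**Figure D3:**
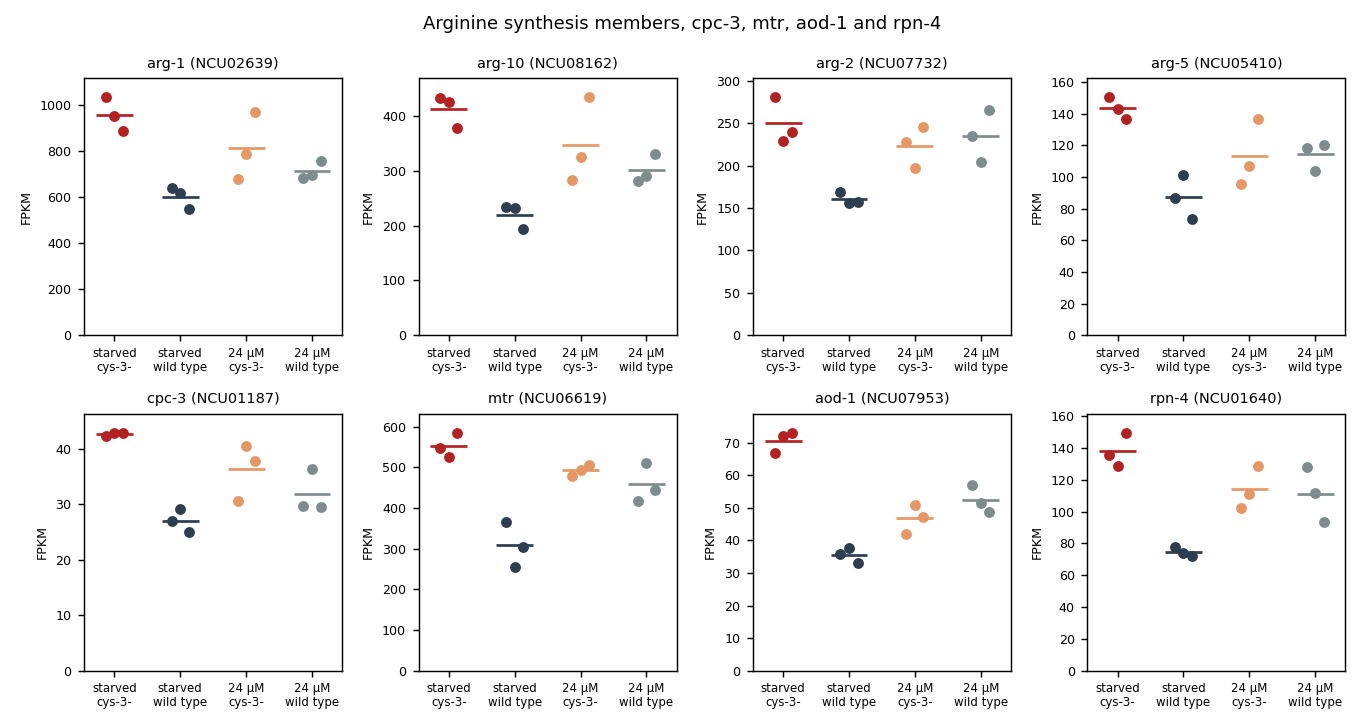
FPKM in every library of the arginine synthesis members *arg-1*, *arg-10*, *arg-2* and *arg-5*, and of *cpc-3*, *mtr*, *aod-1* and *rpn-4*. Points are libraries and lines are group means, with starved groups on the left. In each panel the 3 starved cys-3- libraries lie above the 3 starved wild-type libraries, as the selection requires. The groups with sulfate lie mostly between them, with some libraries overlapping a starved group.

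Several other members of known role belong to amino acid uptake, respiration, proteolysis and vitamin synthesis. *mtr* (NCU06619), a permease for neutral amino acids, had 547, 525 and 585 FPKM in starved cys-3- cells against 366, 255 and 304 FPKM in starved wild type. *aod-1* (NCU07953), the alternative oxidase that passes electrons to oxygen without the cytochrome chain, had 66.8, 72.1 and 73.1 FPKM in starved cys-3- cells against 35.7, 37.6 and 33.1 FPKM in starved wild type. With sulfate, *aod-1* had 42.1, 51.0 and 47.3 FPKM in cys-3- cells and 57.1, 51.6 and 48.7 FPKM in wild type, the lowest strain ratio of all members in that medium (0.89). The strains overlapped there and the difference did not pass the test (limma adjusted p = 0.341). *rpn-4* (NCU01640), named after the Rpn4 transcription factor of proteasome genes in *S. cerevisiae*, had 135, 129 and 150 FPKM in starved cys-3- cells against 77.6, 73.7 and 72.0 FPKM in starved wild type. Among the 30 other proteasome genes tested, 0 were called higher and 16 were called lower in starved cys-3- cells, with a median ratio of 0.85. Over all 5035 tested genes, members included, the shares were 20.7% higher and 17.1% lower. *pdx-2* (NCU06549), of vitamin B6 synthesis, had a ratio of 2.01.

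The list of heat shock and chaperone genes held no member, with 1 of 11 called higher and 4 lower. The 7 nuclear respiratory chain genes tested were called higher in 0 and lower in 4 cases. Of 10 cytosolic ribosomal protein genes, 2 ribosome biogenesis genes and 1 aminotransferase gene, 0 were called in either direction. The ribosome biogenesis and aminotransferase lists hold only genes beside CYS-3 binding peaks and do not stand for these classes. The members NCU11365 and *arg-5*, both aminotransferases, lie outside the aminotransferase list. For 24 glycosyl hydrolase genes the counts were 6 higher and 8 lower. Of 6 further genes annotated as major facilitator transporters, a list that holds mainly genes beside CYS-3 binding peaks, 0 were called higher and 5 lower, unlike the members NCU00195 and NCU03107. Taking all 133 tested genes of these 15 lists that are not members, 25 were called higher and 40 lower, with *arg-3* and *arg-12* among the 25. Over all 5035 tested genes, members included, 20.7% were called higher and 17.1% lower, so the sets are not alike.

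The most abundant members were largely without a symbol in the annotation used here. NCU04314 (chromosome V, 5587099 to 5588806), a hypothetical protein, had 1517, 1473 and 1840.4 FPKM in starved cys-3- cells against 1163, 928 and 1014 FPKM in starved wild type. NCU06660, NCU00878, NCU06301, NCU04303, NCU06651 and NCU08390 had ratios of 1.87, 1.52, 1.52, 1.69, 1.68 and 1.85. *ccg-1* (NCU03753), a clock-controlled gene, had 476, 475 and 627 FPKM in starved cys-3- cells against 345, 244 and 347 FPKM in starved wild type. With sulfate *ccg-1* had 453, 884 and 601 FPKM in cys-3- cells, where its highest value lay, and 427, 565 and 365 FPKM in wild type. *al-2* (NCU00585), phytoene synthase of the carotenoid pathway, *csp-1* (NCU02713), a repressor in the clock's output, and *cat-1* (NCU08791), a catalase, were members with ratios of 1.60, 1.65 and 1.52. Of the other carotenoid genes, *al-1* had 13.4 to 16.6 FPKM in starved cys-3- cells against 12.2 to 19.4 FPKM in starved wild type, and *al-3* at most 16.6 FPKM against at least 16.2 FPKM. Both overlapped between the starved strains, in contrast to *al-2*.

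Cell wall, receptor and ion genes were also present. *gpr-6* (NCU09195), a G-protein-coupled receptor, had 102, 99.4 and 94.4 FPKM in starved cys-3- cells against 49.2, 46.4 and 46.7 FPKM in starved wild type, with little spread within either group. *emp-14* (NCU04016), annotated as phosphoglycerate mutase, had a ratio of 2.04. Of 5 other tested genes with *emp* symbols or that annotation, 0 were members. *emp-3*, *emp-6* and *emp-7* were called higher by ratios of 1.21 to 1.23. *emp-10*, also a phosphoglycerate mutase, was called lower with a ratio of 0.44. Over all 5035 tested genes, members included, the shares were 20.7% higher and 17.1% lower. The kinases *stk-39* (NCU06230) and *stk-34* (NCU05638) had ratios of 1.73 and 1.54, the zinc transporter *tzn-2* (NCU11414) 1.59, and the cell wall genes *acw-12* (NCU08171) and *ncw-6* (NCU00586) 1.56 and 1.55. NCU07931, a glyoxylate reductase by its annotation, and NCU07725, a chorismate mutase of aromatic amino acid synthesis, had ratios of 1.89 and 1.66.

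In medium with 24 µM sulfate, a comparison in which cys-3- libraries had no part in the selection, most members leaned the same way without passing the test. The mean was higher in cys-3- for 190 of the 208 members, against 49.3% of all tested genes, and the median log2 difference was 0.21 for the members and 0.00 for all tested genes. By limma, 1 of the 208 (NCU03534) was called higher, with 0.0993% of tested genes called, and 0 were called lower, with 0.139% called. At an unadjusted p under 0.05, 55 members were higher and 0 lower, whereas 9.39% of all tested genes were higher. The 3 cys-3- libraries lay above the 3 wild-type libraries for 24 members, against 7.45% of tested genes, and below them for 1 (NCU09284), also against 7.45%. The p values rest on a spread estimated from all 12 libraries, the starved ones included. The selection required the starved strains not to overlap, which can favor genes with little spread and so small p values. The unadjusted counts are therefore not independent of the selection. A fit of only the groups compared also called 1 member higher. The wild-type libraries of this comparison did enter the selection through the 2/3 limit, which favors a low wild-type mean. In a set of 261 genes chosen without that limit, the mean was higher in cys-3- for 216, 60 were higher and 2 lower at an unadjusted p under 0.05, and the 3 cys-3- libraries lay above the 3 wild-type libraries for 24 and below them for 1. The median log2 difference of that set was 0.17, and 1 gene was called. This set keeps the condition that the starved strains do not overlap.

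**Figure D4:**
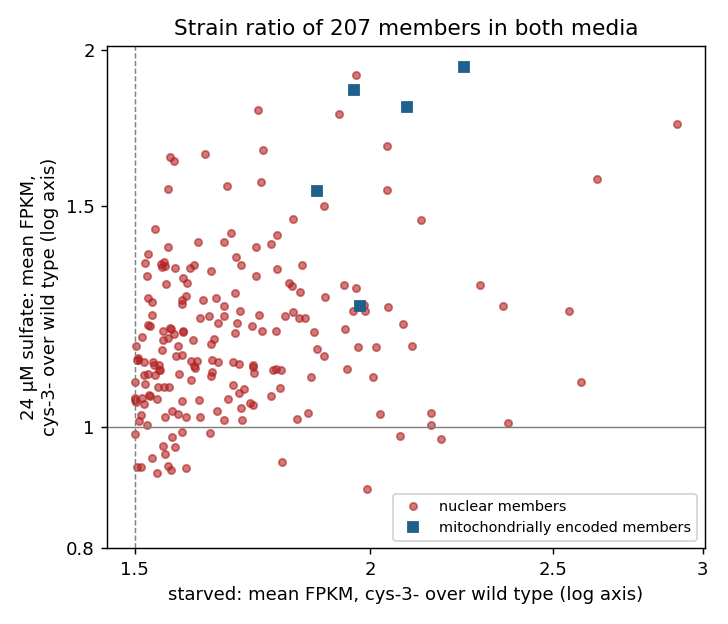
Ratio of mean FPKM, cys-3- over wild type, in starvation (horizontal, log axis) and in 24 µM sulfate (vertical, log axis) for 207 members. NCU03534 is left out because its wild-type level with sulfate is at the floor. The dashed line marks the limit of 1.5 and the grey line equal means; most members lie above the grey line and under 1.5 in sulfate, and 4 of the 5 mitochondrially encoded members lie above 1.5.

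The 9 members next to NCU03534 in order of p had log2 differences of 0.43 to 0.83 and did not pass. NCU00260 (chromosome III, 3200602 to 3202435) had 51.0, 71.2 and 51.4 FPKM in cys-3- cells against 31.1, 38.4 and 36.2 FPKM in wild type with sulfate (log2 difference 0.69 ± 0.13 (SE), limma adjusted p = 0.0607). In starvation NCU00260 had 46.8, 52.0 and 57.9 FPKM in cys-3- cells against 31.1, 32.7 and 36.2 FPKM in wild type. The strain difference of this gene was therefore of like size in both media. The other 8 were NCU07815, NCU00721, NCU04931, NCU08603, NCU02932, NCU04342, NCU08155 and NCU17064, with limma adjusted p values of 0.119 to 0.220. In sulfate, 20 members had a strain ratio of at least 1.5.

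One wild-type library decided how many members were called with sulfate. Without wild-type replicate 2, 51 members were called higher and 0 lower, against 7.79% of tested genes called higher, and the members' median log2 difference was 0.29. That replicate was the highest of the 3 wild-type libraries with sulfate for 150 members (72.1%, against 44.7% of all tested genes). Among the cys-3- libraries with sulfate, replicate 1 was the lowest for 151 members (72.6%, against 34.5%) and replicate 3 the highest for 117 (56.2%, against 28.0%). Among the starved wild-type libraries, replicate 1 was the highest for 134 members (64.4%, against 28.6%) and replicate 2 the lowest for 123 (59.1%, against 36.1%). Members thus tended to be high or low in the same cultures of a group.

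Genes encoded in the mitochondrial genome were 5 of the members and moved with particular libraries. Of 28 such genes in the files, 17 were tested. *atp-6* (NCU16025), subunit 6 of ATP synthase, had 111, 113 and 94.2 FPKM in starved cys-3- cells against 87.8, 17.8 and 46.3 FPKM in starved wild type. With sulfate it had 124, 106 and 101 FPKM in cys-3- cells against 29.2, 117 and 38.0 FPKM in wild type. The wild-type values ran over a wider range than the difference between the strains, with replicate 1 high in starvation and replicate 2 high with sulfate. NCU16017 had the same form, with 45.5, 39.8 and 31.1 FPKM in starved cys-3- cells against 29.7, 4.59 and 17.6 FPKM in starved wild type. The members NCU16002, NCU16003 and NCU16012 had strain ratios in starvation of 1.96, 1.97 and 1.87. Of the 12 tested mitochondrially encoded genes that are not members, 4 were called higher in starved cys-3- cells and 0 lower. Their median ratio was 1.87. Over all 5035 tested genes, members included, the shares were 20.7% higher and 17.1% lower. The *atp-6* locus shares 1443 bases with NCU16026, and NCU16012 shares 3047 bases with NCU16011, so the division of unstranded reads between such pairs is uncertain.

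**Figure D5:**
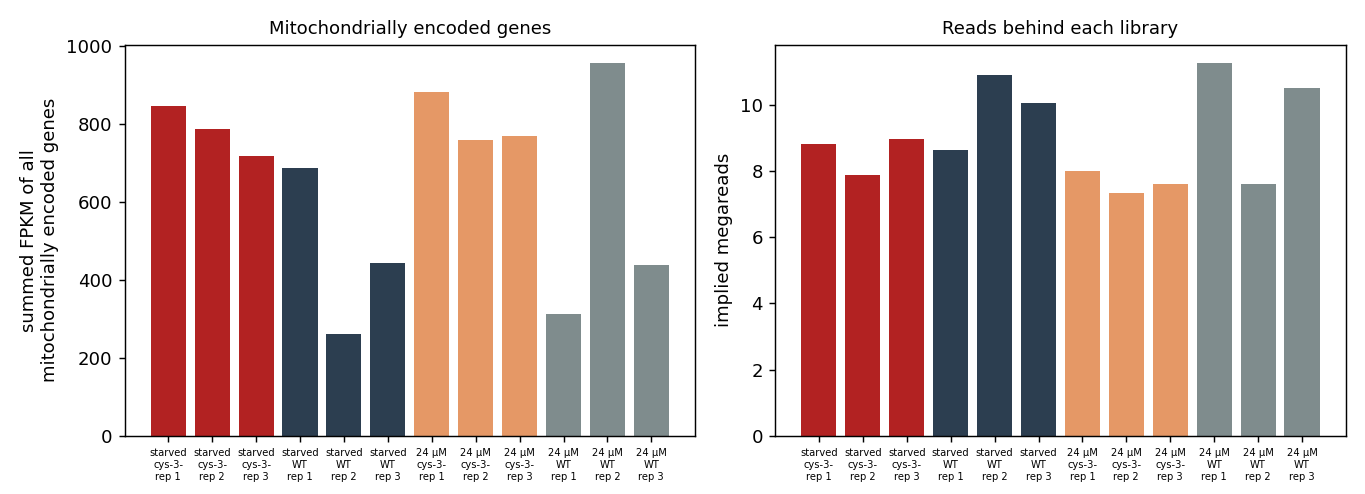
Summed FPKM of the 28 mitochondrially encoded genes (left) and implied megareads (right) for each of the 12 libraries, starved groups first (WT, wild type). The 6 cys-3- libraries sum to 717 to 882 FPKM, and the wild-type libraries range from 261 FPKM in starved replicate 2 to 955 FPKM in replicate 2 with sulfate.

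The summed FPKM of mitochondrially encoded genes was 846, 787 and 717 in starved cys-3- libraries against 686, 261 and 443 in starved wild-type libraries. With sulfate it was 882, 759 and 769 in cys-3- libraries against 313, 955 and 437 in wild-type libraries. The wild-type libraries with the most mitochondrial transcript, starved replicate 1 and sulfate replicate 2, also had the fewest implied reads of their groups (8.64 and 7.62 megareads) and the largest sums over nuclear members. The reads implied by the width of the Cufflinks intervals were 7.33 to 8.96 megareads in cys-3- libraries and 7.62 to 11.2 megareads in wild-type libraries. The part that mitochondrial transcript level or depth has in the members' differences was not tested. Marker genes of conidia were low, with 0.656 to 1.63 FPKM of *con-6* and at most 1.55 FPKM of *con-10*. *con-8* (9.02 to 9.87 FPKM in starved cys-3- cells against 5.40 to 6.83 FPKM in starved wild type) and *eas* (19.8 to 24.3 FPKM against 12.1 to 16.7 FPKM) were higher in starved cys-3- libraries. The mating pheromone gene *mfa-1* was lower (20.1 to 31.1 FPKM against 47.6 to 176 FPKM). With sulfate the means leaned the same way, at 8.44 FPKM in cys-3- against 5.71 FPKM in wild type for *con-8*, 29.8 against 12.0 FPKM for *eas* and 31.1 against 109 FPKM for *mfa-1*. The part of cells in other developmental states in the result was not tested. A smaller share of cells with a transcript and less transcript per cell cannot be told apart in bulk RNA.

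The members were spread over the whole genome. They numbered 47 on chromosome I, 13 on II, 25 on III, 40 on IV, 42 on V, 17 on VI and 19 on VII, which is 2.49% (II) to 5.38% (IV) of the tested genes of each nuclear chromosome. The mitochondrial genome had 5 members among 17 tested genes (29.4%). Members that are direct neighbors formed 9 pairs, among them *al-2* with *ncw-6*, *csp-1* with NCU02712, *hcp-1* with NCU07222 and *arg-10* with NCU08163. None of the 9 pairs shares bases in the annotation. All 208 are annotated as protein coding, with a median gene length of 2178.5 bases against 2421 bases over all tested genes. For 56 members the annotated locus overlaps another gene, where unstranded reads could be assigned to either.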

How the data were processed

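FPKM values of 9758 genes were taken as deposited for 12 libraries. Per the labels and the study's methods, the authors aligned unstranded single-end reads of poly(A) RNA with HISAT2 (2.1.0 in the submitters' processing notes, another version in the methods) to predicted transcripts of the OR74A genome and computed FPKM with Cufflinks 2.2.1, without scaling libraries to each other. Cuffnorm 2.2.1 is also named in those notes. Depth was inferred from the Cufflinks confidence bounds: an FPKM F with upper bound H was counted as (2F/(H - F)) squared reads. These implied reads came to 7.33 to 11.2 megareads per library, and intervals of this kind cover counting error only. Pearson's r between replicates, across genes (which are not independent), was 0.982 to 0.997. Each replicate is a separate culture.

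The members and lists were chosen with earlier results of these data known. Log2(FPKM + 1) of the 12 libraries was fitted with 1 mean per group in limma 3.58.1 (R 4.3.3), with a variance trend. The fit held 5035 genes whose mean reached 10 FPKM in a group and that had no failed status in a library (4 genes had one). P values were adjusted by Benjamini-Hochberg over all tested genes, and a gene was called at an adjusted p under 0.05. The smallest two-sided p that exact permutation of 3 against 3 allows is 0.1, so limma's p values are given. The strains were tested in 24 µM sulfate for members, and in starvation only for genes that are not members. Printed ratios are of group mean FPKM, and log2 differences are on the log2(FPKM + 1) scale, which understates changes of low genes. Members are named if among the 15 highest ratios, the 10 most abundant, the 10 smallest p values in 24 µM sulfate, the 3 on either side of the 1.5-fold limit, in a list or named by the study. Other members with a symbol or an annotated role, such as *aod-1* and *pdx-2*, were named for it, outside these sets. NCU03533, NCU03535, NCU03537, *un-24*, NCU09284, NCU02712, NCU07222 and NCU08163 were named after their values were seen. The 15 lists were built from RefSeq symbols, gene position and the annotation of genes beside CYS-3 peaks, so they hold few genes each. Of the file's genes, 9757 were matched to RefSeq, 99.9% with the same coordinates. Tested on simulated data for the strains in 24 µM sulfate (5035 genes), the fit recovered 87 of 100 changes of 0.58 and 97 of 100 of 1 on the log2 scale, with 6 false calls. The simulated noise was independent between genes, with no shift shared by the genes of a library. These shares therefore do not give the power of the test in the real libraries. Alternatives were a pseudocount of 0.1, a minimum of 1 FPKM or none, upper-quartile and quantile scaling, only the 6 libraries compared, no trend, the replicate number as a block, a 2-fold limit and leaving out each library. A member set without the 2/3 limit was added after seeing the data. Tables used pandas 2.3.3 and numpy 2.4.6.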

Additional observations from a re-analysis of the deposited data

How the results depend on the processing

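NCU03534 was called higher in cys-3- with 24 µM sulfate in the main fit and under all 20 alternatives run for it, and 0 members were called lower under any. Leaving out single libraries gave 1 to 51 members called higher: 51 without wild-type sulfate replicate 2, 2 without starved wild-type replicate 2 (NCU04342 added), 2 without cys-3- sulfate replicate 3 (*pho-3*, NCU08643, added) and 1 otherwise. Over all tested genes those settings gave 2 to 392 called higher and 5 to 315 called lower. Fitting only the groups compared gave 2 higher and 4 lower, and no filter 4 lower. With the replicate number as a block, 2 members were called (NCU00260 added). The numbers do not pair the cultures: deviations of same-numbered libraries correlated at -0.51 to 0.45, above 0.1 in 2 of 18 pairs. Of the listed genes that are not members, 25 were called higher in starved cys-3- cells, 14 with no filter, and 13 to 30 with 1 library left out. A 2-fold limit left 23 members, upper-quartile scaling gave 224 (194 of the 208 among them), and leaving out 1 library gave 180 to 246, with 155 of the 208 kept without starved wild-type replicate 2. The causes of these changes were not tested. Scaling by the upper quartile moved the median of all tested genes to -0.02, and the members' median to 0.19.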
